A study of Mus musculus with 6 samples.

Results

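The protein part of the large subunit of the cytosolic ribosome was followed through 41 genes, from Rpl4 to Rplp2, in mouse bone marrow RNA. The members were named by symbol, and each of the 41 symbols matched 1 Ensembl gene among the 47729 genes of the deposited count table. Bulk RNA-seq was done on 3 libraries of cluster KO mice, in which the SNORD113-114 cluster of small nucleolar RNA genes is knocked out and which are labelled as mutant, and on 3 libraries of wildtype mice. The labels give no age, sex, strain, allele or sorting step, and although the series design speaks of 3 mice of each genotype, they do not say which animal a library came from. The p-values therefore speak only of the spread among these libraries, which may be technical. The libraries were made from poly(A) RNA of whole marrow cells with a Nextera XT kit, without strand information, and were sequenced as a pool. The series asks which genes differ without the cluster, with a stated interest in stem cells and the translation machinery.

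The large subunit holds the peptidyl transferase centre, where peptide bonds form, and the tunnel through which the new chain leaves. Its proteins are small, mostly basic and made in step with each other, and most are needed for assembly or stability of the subunit in the nucleolus and the cytoplasm. Their mRNAs, and those of several translation factors, start with a cytosine followed by a run of pyrimidines, the terminal oligopyrimidine or TOP motif, through which mTOR and the RNA-binding protein Larp1 control how well they are translated. In human patients, loss of 1 copy of several ribosomal protein genes causes Diamond-Blackfan anemia, a failure of red cell production in the marrow.

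Transcripts of the large subunit proteins were lower in cluster KO marrow by a little under 2-fold at the median, and by very unequal amounts. Of the 41 members, 39 fell and 0 rose (edgeR quasi-likelihood test, Benjamini-Hochberg adjustment over the 15686 genes tested, threshold 0.05), where 12.1% of the tested genes fell and 15.9% rose. At an unadjusted p under 0.05 the count of higher members was also 0. DESeq2 called 39 members lower and 0 higher, where it called 14.7% of genes lower and 19.3% higher, and limma-voom called the same numbers of members, with 12.6% and 15.7% of genes. Under upper-quartile scaling, where the median of all genes was -0.103, 39 members fell, with a median of -0.96, and 15.4% of all genes fell and 13.4% rose. With no filter on low counts 39 members fell, against 5.95% of all genes. Of the fits without 1 library, that without cluster KO 2 called the fewest members, 35, and 4.57% of all genes lower. Without wildtype 1 or wildtype 2 the count was 37 members, against 8.24 and 5.79% of genes, and without cluster KO 1, cluster KO 3 or wildtype 3 it was 39, against 15.9, 7.99 and 5.29%. The median log2 fold change was -0.86, against 0.002 over all genes tested. The members spread from -1.20 for Rpl38 to -0.06 for Rpl4, with the middle 50 percent of them between -1.02 and -0.62 and an SD of 0.27. The standard error of a single member's value ran from 0.09 to 0.17, so the distance between the ends of the list, 1.14 on the log2 scale, was several times the error of any member. In 40 members the 3 cluster KO libraries lay below the 3 wildtype libraries without overlap, which 23.1% of the tested genes also did. In bulk RNA, fewer cells that hold many of these transcripts and less of them per cell cannot be told apart.

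**Figure D1:**
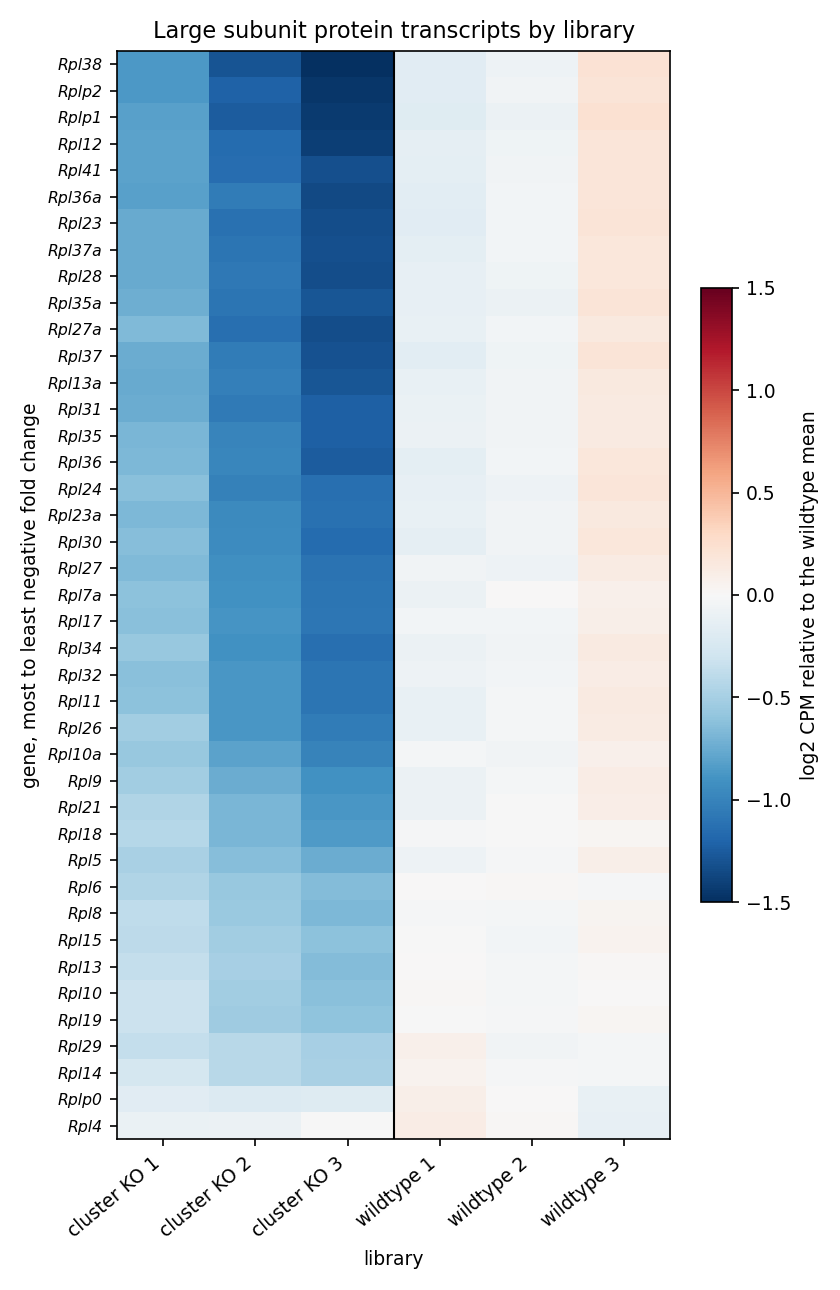
Heat map of the 41 large subunit genes (rows, ordered from the most to the least negative fold change) in the 6 libraries (columns, cluster KO left of wildtype). Colour gives log2 normalised CPM relative to the gene's wildtype mean, from -1.5 (dark blue) to 1.5 (dark red); the blue deepens from cluster KO 1 to cluster KO 3 in most rows and is nearly absent in the lowest rows, Rplp0 and Rpl4.

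The starts of 6 genes show the sequence that the TOP motif is read from, for 3 members at the low end of the fold changes and 3 at the high end. Each line runs 5′ to 3′ on the gene's own strand from 20 bases before to 10 bases after the RefSeq start (GRCm38.p6), and the capitals mark the longest unbroken run of C and T in those 30 bases.
Rpl38, chr11:114668560-114668589, plus strand: ccggaagcggaagcctcgTTCTTTCCCCgt
Rplp2, chr7:141447631-141447660, plus strand: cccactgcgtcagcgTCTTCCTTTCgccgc
Rpl41, chr10:128549159-128549188, minus strand: gacgacacacgggccggCTCggaagtgacg
Rpl14, chr9:120571497-120571526, plus strand: cggcagggcgggCCCTCTCTCTTCTCgctg
Rplp0, chr5:115559447-115559476, plus strand: acgtcgTCTTCgggtttcgaggaccgcctg
Rpl4, chr9:64173367-64173396, plus strand: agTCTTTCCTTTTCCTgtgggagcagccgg
The run was 10 bases in Rpl38 and in Rplp2 and 14 bases in Rpl14 and in Rpl4, while the windows of Rpl41 and Rplp0 held runs of 3 and 5 bases. Long tracts thus stood near both ends of the list in these 6 genes, but not at the same place. Relative to the annotated start, the run began at -2 in Rpl38, -5 in Rplp2, -8 in Rpl14 and -18 in Rpl4. In Rpl4 it also ended before that start. Rpl12, which fell slightly more than Rpl41, had a run of 7 bases and is not printed. Rplp1, which fell more than Rpl12, had no matched promoter. RefSeq promoters were matched for 32 of the 41 members, and 17 of these (53.1%) had a run of at least 8 pyrimidines in the window of any annotated start, against 14.5% of all 27025 genes with a promoter. Across the 32 members the length of the run had almost no relation to the fold change (Pearson's r 0.09, Spearman's rho 0.14, a description across genes). In the whole 300-base promoters, searched on both strands, the ETS core CCGGAAG occurred in 13 of 32 members (40.6%) and in 9.9% of all genes, CTCTTTC in 12 (37.5%) and in 9.3%, AAGATGG in 3 (9.4%) and in 7.3%, and TATAAA in 2 (6.2%) and in 15.7%. A match is a description of the letters only, and an annotated start can lie some bases from the start in use.

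The stalk, the arm of the large subunit that draws in the GTPase factors of elongation, held genes near both ends of the list, with log2 fold changes from -1.16 to -0.19. Its acidic proteins Rplp1 and Rplp2 form the movable tip. Rplp2 (chromosome 7, 141447370 to 141451585, mm10) was at 474, 370.2 and 312 CPM in the cluster KO libraries and at 764, 829.5 and 985 CPM in the wildtype libraries. Rplp1 (chromosome 9, 61913284 to 61914542) was at 552, 406 and 356 CPM in cluster KO and at 852, 913 and 1136 CPM in wildtype. In both genes the highest cluster KO library lay well below the lowest wildtype library, with log2 fold changes of -1.16 (SE 0.16, adjusted p = 0.00228) and -1.14 (SE 0.17, adjusted p = 0.00265). Rpl12, at the base of the stalk, was at 495, 388 and 324 CPM in cluster KO and at 787, 829.5 and 979 CPM in wildtype, and fell by 1.10 on the log2 scale (SE 0.15, adjusted p = 0.00248). Rplp0, the scaffold that both acidic proteins bind, was at 1766, 1719 and 1732 CPM in cluster KO and at 2107, 1991 and 1839 CPM in wildtype. Its groups did not overlap, but the difference of -0.19 (SE 0.09) missed the threshold (adjusted p = 0.128). As shares of the summed reads of the 41 members, Rplp0 held 7.87 ± 0.88% in cluster KO and 5.44 ± 0.66% in wildtype libraries (SD, n = 3 each). Rplp2 held 1.72 ± 0.15% in cluster KO and 2.35 ± 0.18% in wildtype, so the transcripts of the scaffold and of this partner moved apart within the family.

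Rpl5 and Rpl11 carry the 5S rRNA into the subunit, and when assembly fails they bind Mdm2 and stabilise p53. Rpl5 (chromosome 5, 107900502 to 107909005) was at 764, 686 and 639.5 CPM in cluster KO and at 1015, 1055 and 1139.9 CPM in wildtype. Rpl11 (chromosome 4, 136028265 to 136053428) was at 347, 289.9 and 249 CPM in cluster KO and at 489, 518 and 583 CPM in wildtype. Both fell without overlap of the groups, by 0.62 (SE 0.10, adjusted p = 0.00333) and by 0.84 (SE 0.13, adjusted p = 0.00322) on the log2 scale. Together they took 4.45 ± 0.06% of the members' reads in cluster KO and 4.38 ± 0.07% in wildtype libraries (SD, n = 3 each; exact permutation test, two-sided p = 0.3). Rpl5 alone took a larger share in each cluster KO library than in any wildtype library, and Rpl11 a smaller one.

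The 4 members beside the tRNA sites all fell, with log2 fold changes from -1.06 to -0.49. Rpl36a, an X-linked gene whose protein lies at the exit site for tRNA, was at 306, 262 and 211 CPM in cluster KO and at 486, 523 and 611 CPM in wildtype (-1.06, SE 0.15). Rpl10a, of the mobile L1 stalk over which used tRNA leaves, changed by -0.78 (SE 0.12). Rpl8, a core protein next to the peptidyl transferase centre, was at 1071, 948 and 872 CPM in cluster KO and at 1379, 1364 and 1431 CPM in wildtype (-0.53, SE 0.10). Rpl10, also X-linked and among the last proteins to join the subunit, changed by -0.49 (SE 0.10) with CPM 28.6% lower in cluster KO. The adjusted p of these 4 genes lay between 0.00247 and 0.0087.

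Along the exit tunnel 6 of 7 members fell, and the other was the least changed gene of the family. Rpl4, a large protein with a loop that reaches into the tunnel wall, was at 2108, 2129 and 2247 CPM in cluster KO and at 2429, 2276 and 2064 CPM in wildtype libraries. Its groups overlapped, and the difference was -0.06 (SE 0.09, adjusted p = 0.635, edgeR). In this gene cluster KO 3 was the highest of the cluster KO libraries, although it was the lowest in 39 of the 41 members. Rpl4 was also the member with the highest mean CPM, and Rpl23a, the docking protein at the tunnel exit for factors that meet the new chain, the lowest. Rpl23a was at 153, 125 and 112 CPM in cluster KO and at 225, 235 and 269 CPM in wildtype (-0.90, SE 0.14, adjusted p = 0.00293). Around the same exit, Rpl31 changed by -0.99 (SE 0.13), Rpl35 by -0.95 (SE 0.14), Rpl17 by -0.86 (SE 0.13), Rpl26 by -0.80 (SE 0.14) and Rpl19 by -0.48 (SE 0.10) on the log2 scale. Rpl19 thus lay closer to Rpl8 and Rpl10 than to its neighbours at the exit.

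Transcripts of 3 proteins listed here as bridges to the small subunit fell by similar amounts. Each member was put in a single group, so these 3 are not a full list of bridge proteins. Rpl41, a very short and strongly basic peptide, was at 865, 682 and 605 CPM in cluster KO and at 1361, 1450.1 and 1706 CPM in wildtype (-1.07, SE 0.14, adjusted p = 0.0021). Rpl24, whose loss of function in mice shortens the tail and spots the belly, was at 170.0, 130.2 and 120.1 CPM in cluster KO and at 241, 250.4 and 299 CPM in wildtype (-0.91, SE 0.15, adjusted p = 0.00353). Rpl30, which in yeast binds its own transcript, was at 422, 342 and 295 CPM in cluster KO and at 595, 635 and 739 CPM in wildtype (-0.89, SE 0.14, adjusted p = 0.00322). None of the 3 genes had overlapping groups.

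Each of the other 21 members fell, with log2 fold changes from -1.20 to -0.39. Rpl38, which in mice is needed for the translation of several Hox mRNAs, changed most of the 41 members. It was at 391, 289.9 and 249.5 CPM in cluster KO and at 631, 675 and 828 CPM in wildtype (-1.20, SE 0.17, adjusted p = 0.00248). Rpl23 (-1.05), Rpl37a (-1.04), Rpl28 (-1.03), Rpl35a (-1.02), Rpl27a (-1.02), Rpl37 (-1.01) and Rpl13a (-1.01) also changed by more than 2-fold, with CPM 50.3 to 51.6% lower. RPL35A is among the human Diamond-Blackfan anemia genes, and Rpl13a hosts 4 box C/D snoRNA genes in its introns. Rpl36 (-0.95), Rpl27 (-0.89), Rpl7a (-0.86), Rpl34 (-0.85) and Rpl32 (-0.85) lay near the family median, Rpl32 at 1518, 1283 and 1100.1 CPM in cluster KO and at 2224, 2282 and 2545 CPM in wildtype. Rpl9 (-0.72), Rpl21 (-0.66), Rpl18 (-0.64), Rpl6 (-0.55), Rpl15 (-0.51) and Rpl13 (-0.50) followed. The smallest called changes were in Rpl29 and Rpl14. Rpl29 was at 192, 184 and 174 CPM in cluster KO and at 259, 238 and 239.5 CPM in wildtype (-0.42, SE 0.10, adjusted p = 0.0153). Rpl14 was at 814, 733 and 699.6 CPM in cluster KO and at 1012, 965 and 963 CPM in wildtype (-0.39, SE 0.09, adjusted p = 0.0142). Rpl29 and Rpl14 missed the threshold without cluster KO 2 (adjusted p = 0.0738 and 0.0798), without wildtype 1 (0.0586 and 0.0525) and without wildtype 2 (0.0572 and 0.0628, edgeR). Rpl10 and Rpl19 missed it without cluster KO 2 (adjusted p = 0.0533 and 0.0537, edgeR).

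**Figure D2:**
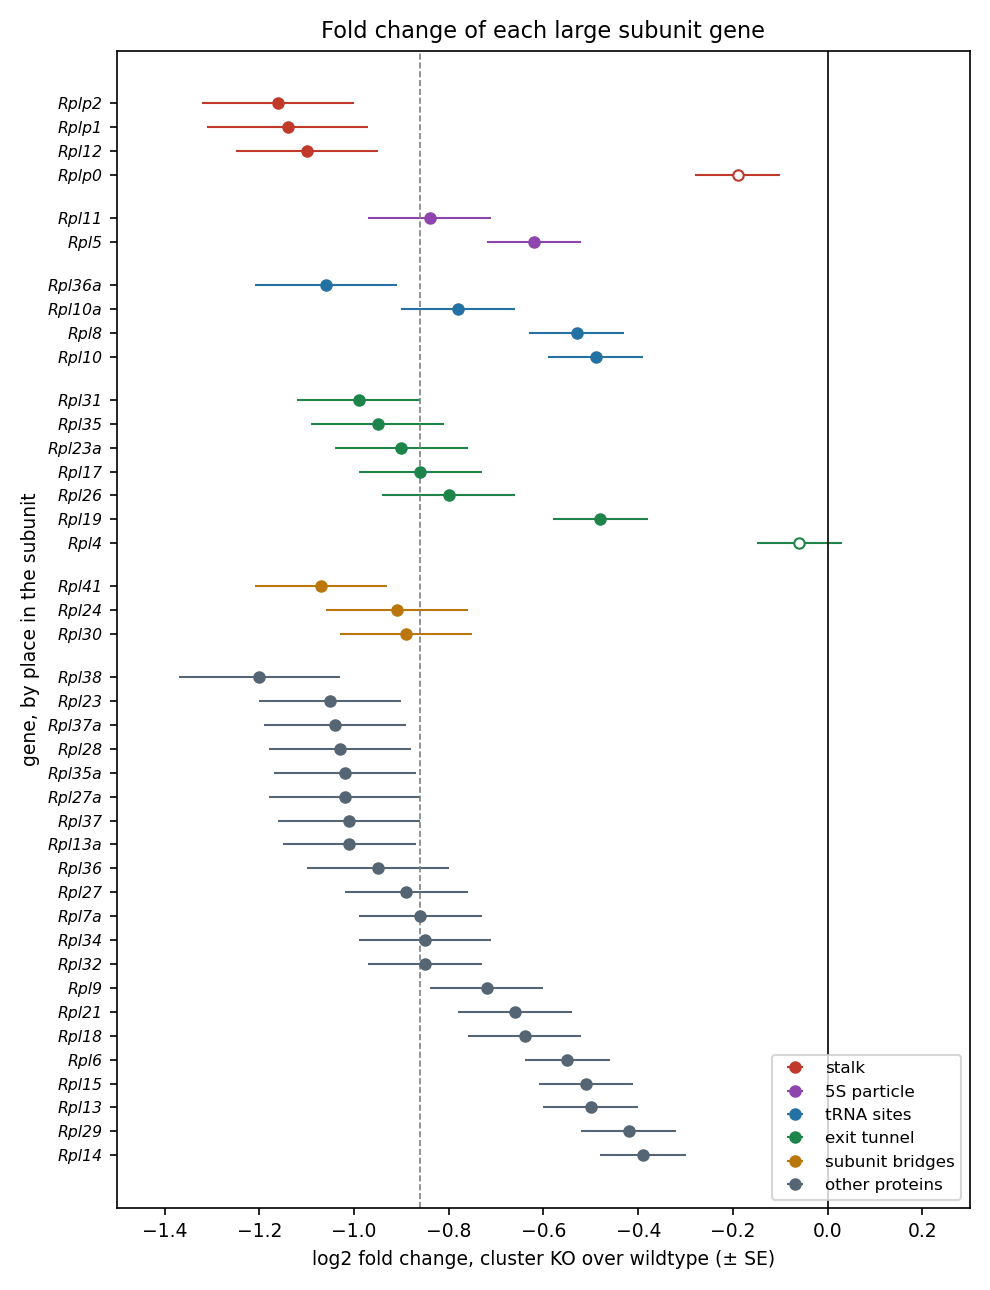
Log2 fold change of each large subunit gene, cluster KO over wildtype (x axis, points with ± SE bars), grouped by place in the subunit (y axis and colour). Filled points passed the adjusted p threshold of 0.05 and the 2 open points, Rplp0 and Rpl4, did not; the dashed line marks the family median of -0.86.

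Taken as 1 pool, the 41 members held 2.59, 2.20 and 1.94% of all gene counts in the cluster KO libraries and 3.46, 3.57 and 3.87% in the wildtype libraries. The groups did not overlap, at 2.24 ± 0.33% in cluster KO and 3.63 ± 0.21% in wildtype (SD, n = 3 each). A two-sided exact permutation test gave p = 0.1, the lowest value possible with 3 against 3 libraries. The spread between members also differed by library. The SD over members of the log2 level, relative to each gene's wildtype mean, was 0.19, 0.29 and 0.36 in cluster KO, against 0.08, 0.02 and 0.09 in wildtype libraries (exact permutation test, p = 0.1). The wildtype libraries made up their own reference, which lowers their SD. This test therefore does not treat the groups alike, and no difference in spread between genotypes is drawn from it. Within the pool 26 members took a smaller share in each cluster KO library than in any wildtype library, 11 took a larger share and 4 overlapped. Relative to the same pool 3.05% of all tested genes were lower and 60.7% higher without overlap. Rpl4 grew to 9.81 ± 1.499% of the members' reads in cluster KO, against 6.21 ± 0.83% in wildtype. Rpl13 held 5.54 ± 0.14% in cluster KO and 4.78 ± 0.24% in wildtype, and Rpl8 held 4.33 ± 0.09% in cluster KO and 3.81 ± 0.13% in wildtype. The stalk genes together held 12.98, 13.26 and 13.73% of the members' reads in cluster KO and 12.88, 12.79 and 12.69% in wildtype (exact permutation test, p = 0.1). Of 5 such values tested per library, each p of 0.1 became 0.125 after Benjamini-Hochberg adjustment.

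Coding length was the feature that ordered the members most. Across the 41 genes the log2 fold change went with the log2 of the longest annotated coding length at a Pearson's r of 0.77 and a Spearman's rho of 0.78, a description across genes, which are not independent replicates. The 13 members with at most 400 coding bases had a median of -1.02 and a range of -1.20 to -0.85. The 11 members from there to 500 bases had a median of -0.90, the 9 up to 650 bases -0.64, and the 8 up to 1300 bases -0.54 with a range of -0.86 to -0.06. Rpl4 and Rplp0, which missed the threshold, have the longest coding sequences of the family, at 1257 and 951 bases. Other protein-coding genes, without ribosomal protein genes, moved along the same axis at a higher level, with medians of -0.25, -0.05, 0.11 and 0.32 in the same 4 length classes (649, 462, 859 and 4012 genes). In the shortest class 33.7% of those other genes fell, and in the longest of the 4 classes 6.6% did. In each class the members' median lay below the lower quartile of the other genes, which was -0.64, -0.40, -0.25 and -0.08. Over all 12792 protein-coding genes tested, most of them longer, the relation ran the other way and was weak (r -0.12).

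**Figure D3:**
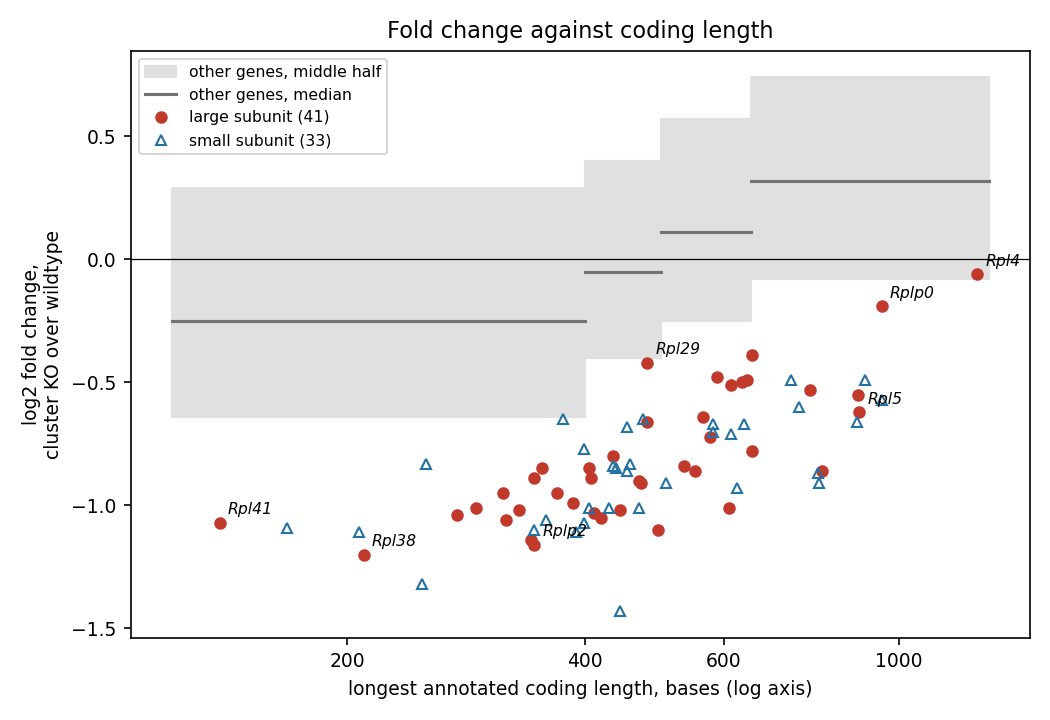
Log2 fold change, cluster KO over wildtype (y axis), against the longest annotated coding length in bases (x axis, log scale). Red circles are the 41 large subunit genes, open blue triangles the 33 small subunit genes, and grey lines and bands the median and the middle 50 percent of other protein-coding genes in 4 length classes; both ribosomal sets climb with length, and Rpl4 and Rplp0 stand at the upper right.

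Removing trends on transcript length and GC content moved some single members more than the family median. With smooth trends on transcript length and GC content removed from each library, all 41 members fell (13.7% of genes fell and 12.0% rose in that fit), the median was -0.82 and the SD over members 0.24. Rpl4 then stood at -0.38 (SE 0.07, adjusted p = 0.00433) and Rplp0 at -0.29 (SE 0.07, adjusted p = 0.0135, edgeR). Rpl6 moved to -0.86, and the largest changes became those of Rpl12 (-1.42) and Rpl27a (-1.23), which have long annotated transcripts for their coding length. The length used was the median over a gene's annotated coding transcripts, 1242 bases for Rpl12 and 1158 for Rpl27a. Which transcripts are present in marrow was not tested, so this new order rests on the annotation. The relation to coding length, on which no trend was removed, weakened to r 0.41 in that fit. Without the correction, r was 0.52 against transcript length, 0.06 against GC content and 0.40 against the log10 of the mean CPM.

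Most of these genes have near copies elsewhere in the genome, which limits what unique reads can show. The share of 50-base windows of a member's transcript that also occur exactly in a transcript of another annotated gene ran from 7.9% in Rpl8 to 95.1% in Rpl35, with a median of 64.1%. This share also counts genes that overlap a member at its own locus, and exons of Rpl35 overlap Arpc5l and Wdr38. It is therefore not a measure of copies elsewhere alone. Rpl7a shared windows with 120 pseudogenes, Rpl21 and Rpl29 with 81 each, and Rpl4, Rpl8, Rpl14 and Rplp2 with 1 each. The fold change had no relation to this share (r 0.00, rho 0.16, n = 41). The level did to a small degree, at r -0.30 between the log10 of CPM per kilobase of transcript and the share of windows. Per kilobase, cluster KO means ran from 207 CPM for Rpl24 to 2036 CPM for Rplp0, and wildtype means from 379.5 CPM for Rpl29 to 3303 CPM for Rpl32. The order of levels between members is for this reason uncertain, and exons of 15 members overlap another annotated gene. Annotated snoRNA genes, 35 in all, lie inside 17 members on the same strand. The median log2 fold change was -0.86 in these hosts and -0.87 in the other 24 members.

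Transcripts of the small subunit proteins and of the other large subunit proteins moved with those of the members. Of 33 small subunit genes 33 fell, where 12.1% of all tested genes fell and 15.9% rose. Their median was -0.85, with a range of -1.43 for Rps12 to -0.49 for Rps3, and Rps3a1 at -0.91 (SE 0.11, adjusted p = 0.00141). Their fold changes also went with coding length (r 0.63, rho 0.65, n = 33). Summed over genes, the reads of the 41 members were 0.918, 0.951 and 0.973 times those of the 33 small subunit genes in cluster KO, against 0.915, 0.900 and 0.894 times in wildtype. The groups did not overlap, though cluster KO 1 and wildtype 1 nearly met (exact permutation p = 0.1). The 7 large subunit genes outside the 41 all fell, from -1.19 (SE 0.17) for Rpl39, of the tunnel wall, to -0.35 (SE 0.08) for Rpl3, a long gene next to the peptidyl transferase centre. Among the ribosomal paralogs 2 rose and 1 fell of 4 tested, and 1 rose without cluster KO 2, without wildtype 3 or with length and GC trends removed. Rpl7l1, a nucleolar relative of Rpl7, was at 209, 257 and 293 CPM in cluster KO and at 175, 172 and 136 CPM in wildtype (0.65, SE 0.15, adjusted p = 0.0116). Rpl22l1, the paralog of Rpl22, fell (-0.73, SE 0.14, adjusted p = 0.00534). Rpl3l, a muscle paralog, rose on very few reads (3.94, SE 0.81, adjusted p = 0.0076), at 2.06, 2.02 and 1.81 CPM in cluster KO and 0, 0.283 and 0.103 CPM in wildtype.

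Other TOP mRNAs followed in part. Of 23 listed genes 12 fell and 1 rose, where 12.1% of all tested genes fell and 15.9% rose. Their median was -0.34. The elongation factor gene Eef1b2 changed by -1.04 (SE 0.16, adjusted p = 0.00277) and the nucleolar chaperone gene Npm1 by -0.58 (SE 0.09, adjusted p = 0.00302), while Eif3l, of an initiation factor, rose by 0.49 (SE 0.15, adjusted p = 0.0325). It was the only higher call of the list, and 0 of the 23 were called higher without cluster KO 2, cluster KO 3, wildtype 1, wildtype 2 or wildtype 3, or with length and GC trends removed. Of 53 genes listed for ribosome assembly, mainly of the large subunit, 10 rose and 6 fell, with a median of 0.03. These shares were near the 15.9% of all tested genes that rose and the 12.1% that fell. Wdr18 (1.29, SE 0.20) and Aamp (1.02, SE 0.19) rose, and Gnl3l (-0.97, SE 0.17) and Pelp1 (-1.02, SE 0.20) fell. Without wildtype 3 the counts were 3 and 3, and without cluster KO 2 they were 5 and 2. Of 16 regulators of TOP mRNAs 3 fell and 1 rose, where 12.1% of all tested genes fell and 15.9% rose. Larp1 was at 91.5, 76.2 and 68.9 CPM in cluster KO and at 117, 126 and 129.5 CPM in wildtype (-0.65, SE 0.13, adjusted p = 0.00739), and Larp4, which binds poly(A) tails, fell with it (-0.62, SE 0.12). Eif4e, the gene of the cap-binding protein, rose (0.58, SE 0.15, adjusted p = 0.0199). No regulator was called higher without cluster KO 2, cluster KO 3, wildtype 2 or wildtype 3.

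**Figure D4:**
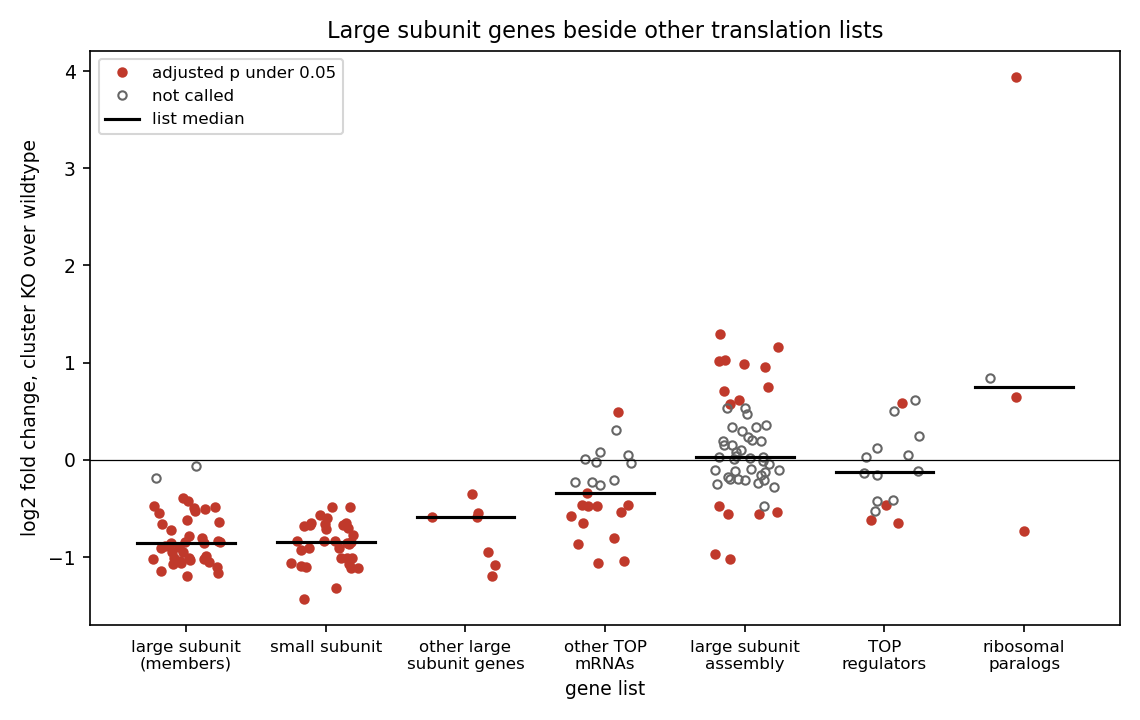
Log2 fold change, cluster KO over wildtype (y axis), of the genes of 7 lists (x axis). Red points passed the adjusted p threshold of 0.05, open points did not, and bars mark list medians. Genes of both subunits lie almost wholly below 0, while those of assembly factors lie on both sides of it.

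Several library values moved with the members. Gene counts ran from 21424579 to 23459168 in the cluster KO libraries and from 17663369 to 22370022 in the wildtype libraries, and the lowest count of any member in any library was 2416. Relative to the wildtype means, the median over members stood, on the log2 scale, at -0.63, -0.91 and -1.11 in the cluster KO libraries and -0.09, -0.05 and 0.13 in the wildtype libraries. Reads outside genes took 10.05, 8.59 and 7.29% of the table in cluster KO and 10.03, 10.50 and 11.06% in wildtype, so the level followed that share within each genotype. Cluster KO 1 and wildtype 1 had nearly the same share, with member medians of -0.63 and -0.09. Reads with more than 1 alignment, which the member counts do not hold, took 14.7, 13.9 and 13.4% in cluster KO and 16.1, 16.3 and 16.8% in wildtype. Of 10 B lineage markers 8 rose, with a summed level of 2137 to 2308 CPM in cluster KO and 717 to 780 CPM in wildtype. Of 12 neutrophil markers 4 rose, at 11136.5 to 21011 CPM in cluster KO and 6548 to 12404 CPM in wildtype. Some of these varied widely among the cluster KO libraries and did not pass the test. Elane was at 710, 2.19 and 171 CPM in cluster KO and at 251, 296 and 113 CPM in wildtype. Ctsg was at 183, 7.28 and 59.2 CPM in cluster KO and at 98.7, 115 and 28.1 CPM in wildtype. Of 9 erythroid markers 5 fell, at 674 to 898 CPM in cluster KO and 907 to 1301 CPM in wildtype, and of 8 megakaryocyte markers 3 fell and 1 rose, at 288 to 293 CPM in cluster KO and 432 to 529 CPM in wildtype. Of 9 stem and progenitor markers 5 rose and 1 fell, at 1210 to 1232 CPM in cluster KO and 1007 to 1054 CPM in wildtype. In the lists for T and NK cells, monocytes and stroma, 1 marker rose of 9, 8 and 6 tested. Over all tested genes 15.9% rose and 12.1% fell, so these single calls were near the share of all genes. Of 5 genes listed as general blood cell markers 4 rose. The 5 summed to 3239 to 4059 CPM in cluster KO and 1242 to 1336 CPM in wildtype. Lyz2 and Spi1 are not shared by all blood cells, and Lyz2, a myeloid gene, made up most of the sum. It was at 3048, 2102.5 and 2147.5 CPM in cluster KO and at 673, 753 and 707 CPM in wildtype. Lyz2 changed by 1.77, Spi1 by 1.67, Coro1a by 1.55 and Cd52 by 0.71. The other, Ptprc, did not pass the test, at 233 to 259 CPM in cluster KO and 223 to 247 CPM in wildtype. No marker on these lists was at 0 in all 6 libraries. The part of read shares and of cell makeup in the members' fall was not tested.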

How the data were processed

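The authors deposited raw read counts per Ensembl gene for 6 libraries, without normalization. Per the submitters' processing notes bcl2fastq, TopHat2 and HTSeq were run on mm10; no source used here gives a version, an annotation release or a counting mode. HTSeq's 5 summary rows entered neither library sizes nor tests. Of all reads in the table these rows held, in cluster KO and in wildtype libraries, 13.4 to 14.7% and 16.1 to 16.8% with several alignments, 7.29 to 10.05% and 10.03 to 11.06% outside genes, and 2.71 to 2.82% and 2.92 to 2.95% that were ambiguous. Names, positions and transcripts came from GENCODE M21 on GRCm38, with 47310 of 47729 genes matched, and promoters from RefSeq.

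Groups came from sample titles. The test was edgeR 4.0.16 in R 4.3.3: TMM scaling, filterByExpr with a minimum count of 10 (15686 genes kept), a robust quasi-likelihood fit on genotype and Benjamini-Hochberg adjustment. CPM uses TMM-scaled library sizes. The standard error is the coefficient divided by the square root of F. Members and lists were chosen with earlier results of these data known. Values are printed in full for the members with the largest and smallest changes, those that missed the threshold, those with the highest and lowest mean CPM and those of the stalk, the 5S particle and the bridges, and in other lists for the genes with the smallest p in each direction. Rpl36a, Rpl8, Rpl29, Rpl32, Rps3 and Rpl3 were added after their values were seen, and so was the choice of gene starts printed. Alternatives used DESeq2 1.42.0 and limma 3.58.1, other scalings, no filter, length and GC trends removed as natural splines with 5 degrees of freedom, a replicate block and each library left out. Replicate libraries differed by more than sampling noise (chi-square per degree of freedom 12.2 to 71.4). The model was also run on simulated counts with a common dispersion for all genes, and no result above rests on that run.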

Additional observations from a re-analysis of the deposited data

How the results depend on the processing

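Over 656 refits of single members (41 members in 16 alternatives) no direction changed, 642 kept their side of the threshold, 11 lost the call and 3 gained it. The count of members that fell stayed at 39 under the other scalings, no filter, DESeq2 and limma-voom. Without 1 library it ran from 35 to 39, the median from -1.02 to -0.75 and the SD over members from 0.23 to 0.32. The counts of all genes ran from 742 to 2579 lower and 1258 to 3151 higher, of assembly genes from 2 to 6 lower and 3 to 16 higher, of other TOP mRNAs from 8 to 13 lower and 0 to 2 higher, of TOP regulators from 2 to 3 lower and 0 to 2 higher, and of paralogs from 1 to 2 higher; the cause was not tested. Upper-quartile scaling gave 2411 genes lower and 2100 higher, against 1895 and 2487, and 5 TOP regulators lower.

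With length and GC trends removed 2136 genes were lower and 1871 higher, 5 TOP regulators were lower, 1 paralog was higher and 0 other TOP mRNAs were higher. Same-numbered libraries did not deviate together (correlations of -0.122, 0.015 and -0.089 over 15686 genes), and not every library correlated best with its own number. No pairing by number was seen, but 3 libraries a group are too few to exclude it. With the replicate number as a block 37 members fell, against 5.51% of all genes, with Rpl14 (adjusted p = 0.0677) and Rpl29 (adjusted p = 0.0705, edgeR) losing the call. That block gave 865 genes lower and 1331 higher, 3 assembly genes lower and 5 higher, 1 paralog higher, and 0 other TOP mRNAs and 0 TOP regulators higher. The block with length and GC trends removed gave 39 members lower, against 6.14% of genes, 959 genes lower and 770 higher, 1 assembly gene higher, 1 paralog higher and 0 lower, 1 TOP regulator lower and 0 higher, and 0 other TOP mRNAs higher; Rpl4 fell (adjusted p = 0.0483) and Rpl29 did not pass (adjusted p = 0.083, edgeR).

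Depth was not the limit for the members, since the lowest count was 2416, but 3 libraries a group limit each test. Reads that fit several copies are missing from the counts, and lists of few genes move by 1 or 2 calls.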
